A study of Mus musculus with 4 samples.

Results

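The heartbeat of the embryonic mouse heart rests on genes that move calcium and genes that set its rhythm, and 10 of them were followed here through the cardiomyocytes (CMs) of E10.5 hearts: *Ryr2*, *Pln*, *Atp2a2*, *Casq1*, *Casq2*, *Slc8a1*, *Cacna1c*, *Cacna1g*, *Cacna2d2* and *Hcn4*. They were chosen by symbol from the 32285 genes of the count matrices, and all 10 were found. Hearts came from control embryos (*Tie2flfl*, with both *Tie2* alleles floxed and no Cre) and from *Tie2-cko* embryos (*Nfatcre-Tie2flfl*, the same floxed alleles with *Nfatc1Cre*, a Cre expressed in the endocardium), of either sex and of mixed 129 and C57/BL6 stock, so that the deletion was aimed at cells other than the CMs described here. The whole cardiogenic region was dissociated and loaded on a 10x Genomics chip, which tags each captured RNA molecule with a unique molecular identifier (UMI). Each genotype had 2 libraries: 5 and 7 were controls, and 6 and 8 were *Tie2-cko*. By the study's methods 2 hearts of each genotype came from one litter, and control and mutant libraries of a litter shared a sequencing lane, but neither the labels nor the methods tie hearts or lanes to these libraries. The p-values therefore measure only the spread between these libraries, which may be technical.

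In a beating CM, calcium enters through voltage-gated channels in the cell membrane and opens ryanodine receptors in the sarcoplasmic reticulum, which release the calcium that drives contraction. The calcium is then pumped back into the reticulum, where calsequestrins bind it, or exchanged for sodium across the membrane. In pacemaker cells of the sinus venosus, the inflow region where the sinoatrial node forms, hyperpolarisation-activated channels carry an inward current that starts each beat. The atrioventricular canal (AVC), between atria and ventricles, and the outflow tract are slowly conducting muscle in the embryo, while atrial and ventricular chamber muscle contracts fast.

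After filtering, 33419 of 50436 barcodes remained, 5684 to 10097 a library, with median depths of 14878 to 25875 UMIs a cell. Any pair of libraries shared 0.327% to 0.521% of the barcodes of the smaller one. CMs made up 24.5% to 48.6% of a library, 12589 cells in all. *Tek*, which encodes TIE2, was at 0.861 and 1.27 UMIs per 10000 in the endocardial cells (EdCs) of libraries 5 and 7 (controls), whereas libraries 6 and 8 (*Tie2-cko*) had 0.34 and 0.238, lower in both. Haemoglobin RNA differed between the genotypes throughout the heart muscle: the summed level of 6 red blood cell markers was 17.5 to 75.7 UMIs per 10000 in the CM regions of the controls and 7.76 to 19.1 in those of *Tie2-cko*, and in every region the control libraries were above the *Tie2-cko* libraries. Its part in the results below was not tested.

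CMs were clustered without the 10 genes and 66 related genes, and clusters were named by marker genes. This gave 7611 ventricular CMs, marked by the ventricular myosin light chain *Myl2* (70.1 UMIs per 10000 on average over libraries, against 3.97 in atrial CMs). The 2305 atrial CMs had the potassium channel *Kcna5* at 0.296, and the 414 sinus venosus CMs had *Shox2*, a transcription factor of the sinoatrial node, at 6.46 (against 0.504 in atrial CMs). The 845 AVC CMs had *Bmp2* at 3.98 (the next highest region, the sinus venosus, had 1.09). The 1009 outflow CMs had the growth factor cofactor *Tdgf1* at 0.355 and no more than 0.00864 elsewhere among the named regions. A cluster of 405 cells led by *Cthrc1*, *Phlda2* and *Col1a2* held CM markers at 0.337 of the median cluster's level and was left unnamed. A level below is the mean over the cells of a library of a gene's UMIs per 10000 UMIs of the cell, and a regional level is the mean ± SD of the 4 libraries. Because regions came from clusters of the same cells, differences between regions are described without a test.

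Levels differed most between regions for *Hcn4* (24.9-fold from the lowest region to the highest), *Cacna2d2* (19.4-fold) and, leaving aside *Cacna1g* with its few UMIs, *Pln* (9.9-fold), and least for *Ryr2* (1.71-fold) and *Slc8a1* (1.77-fold). Of the 8 genes averaging 10 CPM (summed counts scaled to the same total in every library) or more over the regions, 4 had all libraries of one region above all libraries of the others: *Casq1* in atrial CMs, *Hcn4* in sinus venosus CMs, and *Cacna1c* and *Cacna2d2* in AVC CMs. Over all 7098 genes of that abundance the share was 15.2%. The 10 genes were picked for study with such regional differences known, so their higher share is a description.

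**Figure D1:**
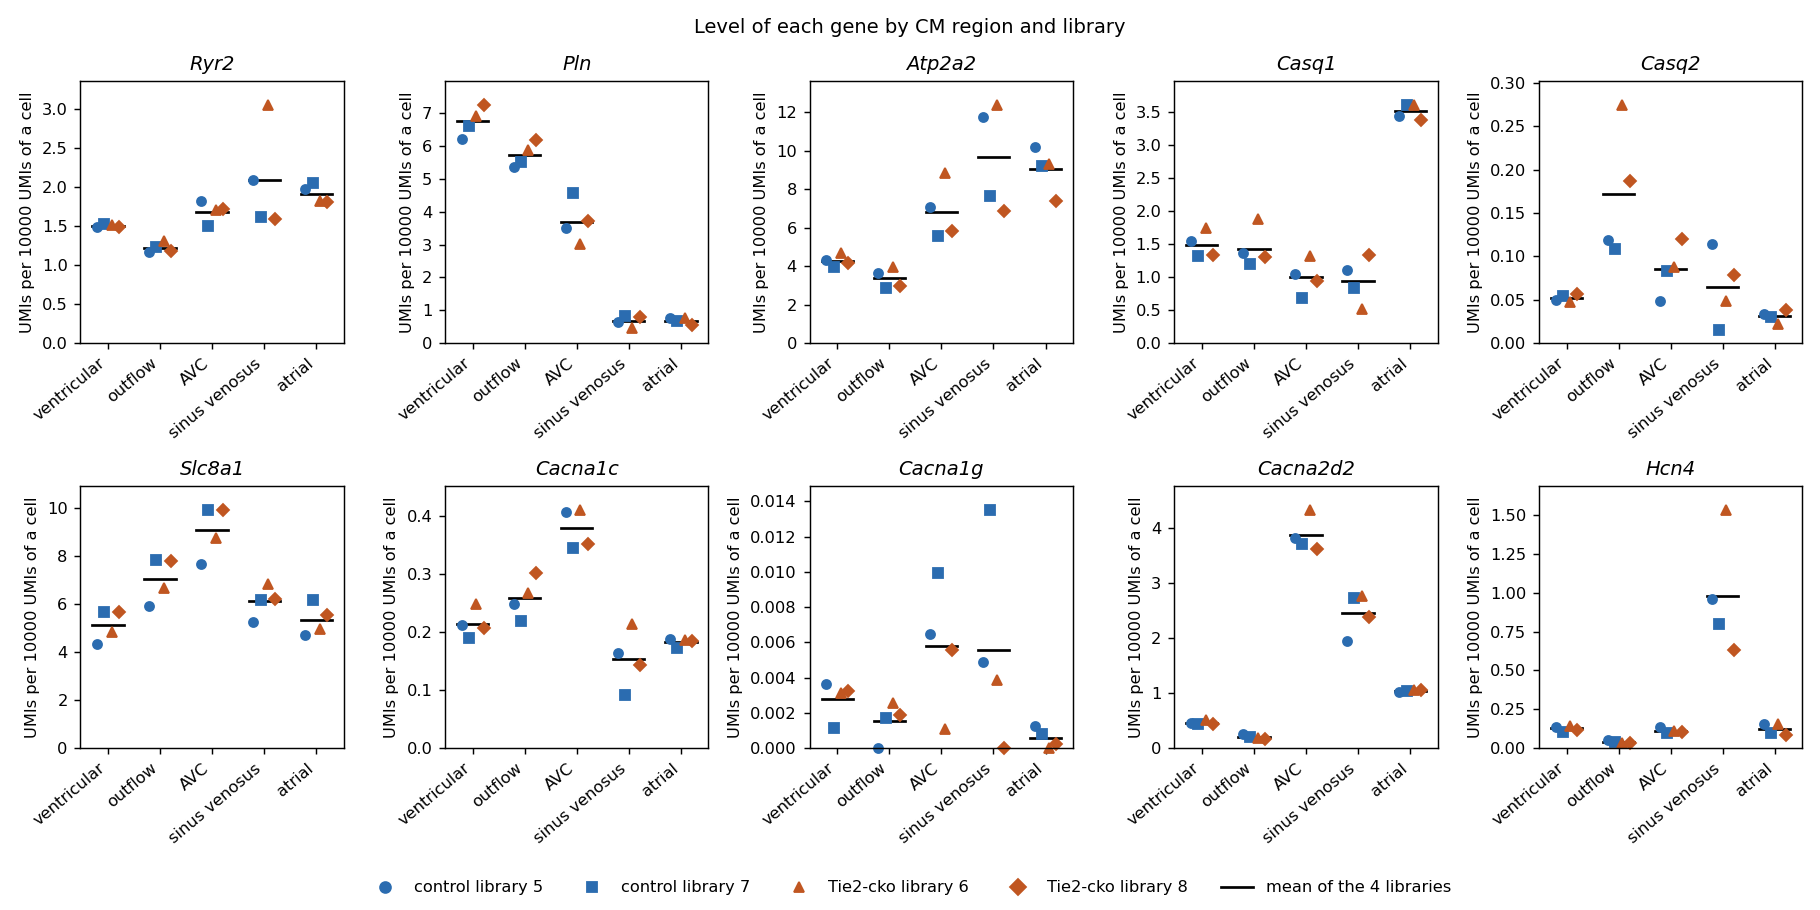
Levels of the 10 genes in 5 CM regions, in UMIs per 10000 UMIs of a cell, 1 panel a gene with its own axis. Each point is a library (control or *Tie2-cko* by colour) and each horizontal line the mean of 4 libraries. *Pln* stands high in ventricular and outflow CMs, *Atp2a2* in sinus venosus and atrial CMs, *Casq1* in atrial CMs, *Cacna2d2* in AVC CMs and *Hcn4* in sinus venosus CMs.

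Promoter sequence is shown for 4 genes whose highest levels lay in different regions, so that a reader can see what precedes each start: *Pln* for ventricular, *Casq1* for atrial, *Hcn4* for sinus venosus and *Casq2* for outflow CMs. Each line gives the 250 bases before the RefSeq start of transcription, 5′ to 3′ on the gene's strand, in the build GRCm38.p6. RefSeq windows were at hand for 8 of the 10 genes, not for *Atp2a2* or *Cacna1g*. Capitals mark matches, on either strand, to AGATAA (bound by GATA factors), AGGTGT (T-box factors), AGGTCA (nuclear receptors), the MEF2 site or the CArG box.
*Pln*, chr10:53337436-53337685, plus strand: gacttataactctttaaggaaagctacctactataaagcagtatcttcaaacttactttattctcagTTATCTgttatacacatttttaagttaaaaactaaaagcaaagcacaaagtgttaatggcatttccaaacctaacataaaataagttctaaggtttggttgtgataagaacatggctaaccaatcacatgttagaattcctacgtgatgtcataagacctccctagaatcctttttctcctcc
*Casq1*, chr1:172219896-172220145, minus strand: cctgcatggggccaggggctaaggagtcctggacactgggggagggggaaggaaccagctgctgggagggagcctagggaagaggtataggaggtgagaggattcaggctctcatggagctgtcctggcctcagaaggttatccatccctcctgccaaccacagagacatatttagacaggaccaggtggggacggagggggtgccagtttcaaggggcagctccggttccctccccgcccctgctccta
*Casq2*, chr3:102086165-102086414, plus strand: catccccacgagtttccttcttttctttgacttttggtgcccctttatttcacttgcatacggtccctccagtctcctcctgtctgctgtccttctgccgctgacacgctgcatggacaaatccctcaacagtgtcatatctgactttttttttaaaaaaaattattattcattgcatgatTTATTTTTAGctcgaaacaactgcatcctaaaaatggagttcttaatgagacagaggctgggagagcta
*Hcn4*, chr9:58822699-58822948, plus strand: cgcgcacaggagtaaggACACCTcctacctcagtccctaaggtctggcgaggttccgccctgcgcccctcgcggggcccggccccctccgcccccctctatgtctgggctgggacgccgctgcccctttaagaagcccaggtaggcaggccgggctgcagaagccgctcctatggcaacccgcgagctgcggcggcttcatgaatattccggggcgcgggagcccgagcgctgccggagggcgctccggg

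The *Pln* window held a GATA match, TTATCT, 183 bases before the start, and was AT-rich, with 32.8% G and C against a median of 52.4% over all windows. Its last bases run into the start of the GENCODE gene model. The *Casq2* window held a MEF2 match, TTATTTTTAG, 69 bases before the start, and the *Hcn4* window a T-box match, ACACCT, 233 bases before the start. The *Hcn4* window ends at base 58822948, well before the GENCODE gene model begins at 58823412, so that distance is from the RefSeq start only. The *Casq1* window held none of the motifs. Of 32851 windows of this length, 9.99% held AGATAA, 11.8% AGGTGT, 14% AGGTCA, 2.92% the MEF2 site and 1.47% the CArG box. A match is a run of letters and was not tested as a binding site.

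*Atp2a2* encodes SERCA2, the pump that returns calcium to the sarcoplasmic reticulum, and *Pln* encodes phospholamban, a small membrane protein that slows that pump until it is phosphorylated. The *Pln* gene lies on chromosome 10 (GRCm38 chr10:53337667-53345987, plus strand), and *Atp2a2* on chromosome 5 (chr5:122453513-122502225, minus strand). *Pln* was at 6.22, 6.92, 6.60 and 7.25 UMIs per 10000 in the ventricular CMs of libraries 5, 6, 7 and 8, a mean of 6.75 ± 0.443 (SD, n = 4). Outflow CMs followed at 5.37, 5.89, 5.51 and 6.18, and AVC CMs at 3.51, 3.01, 4.56 and 3.71. Atrial CMs (0.682 ± 0.100) and sinus venosus CMs (0.685 ± 0.166) were each at 0.101 times the ventricular level, and their libraries overlapped. The ventricular libraries all stood above the outflow libraries on this scale, but on the CPM of summed counts the 2 regions overlapped (604 to 717 against 532 to 625).

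*Atp2a2* ran nearly the other way. It was at 11.7, 12.4, 7.64 and 6.85 UMIs per 10000 in the sinus venosus CMs of libraries 5, 6, 7 and 8 and at 10.2, 9.30, 9.22 and 7.41 in atrial CMs, which overlapped. AVC CMs held 6.81 ± 1.5, ventricular CMs 4.27 ± 0.307 and outflow CMs 3.36 ± 0.526. Libraries 5 and 6 were higher than 7 and 8 in every region, and neighbouring regions in this order overlapped, except AVC against ventricular CMs (5.55 or more against 4.67 or less). On CPM atrial CMs were also clear of AVC CMs (833 or more against 762 or less).

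The ratio of *Atp2a2* to *Pln* within a library therefore varied widely between regions. It was 0.574 to 0.692 in ventricular CMs and 0.479 to 0.678 in outflow CMs, 1.22 to 2.93 in AVC CMs, 12.2 to 13.7 in atrial CMs and 8.66 to 26.5 in sinus venosus CMs. The ratio compares regions and not the amounts of the 2 proteins. *Pln*, its denominator, was low in atrial and sinus venosus CMs (0.682 and 0.685), beside 0.221 in EdCs and 0.236 in mesenchymal cells. The part of RNA leaked from broken cells in these levels was not tested.

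*Pln* also varied within the ventricle. Among 8 ventricular clusters, the one led by *Irx2* and *Myoz2* had 13.4 and the one led by the natriuretic peptide genes *Nppa* and *Nppb*, which mark trabecular muscle, had 10.8, against 4.25 to 6.09 in the other 6. *Atp2a2* spanned 2.26 to 5.77 over the same clusters and *Hcn4* 0.0433 to 0.184. *Ryr2* spanned 0.493 to 2.33 and *Slc8a1* 2.15 to 7.17. The cluster led by *Irx2* and *Myoz2* also had the highest *Cacna2d2* of the ventricular clusters, 1.48 against 0.202 to 0.551 in the rest, and the *Nppa* and *Nppb* cluster the highest *Casq1*, 2.25 against 1.26 to 1.90.

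**Figure D2:**
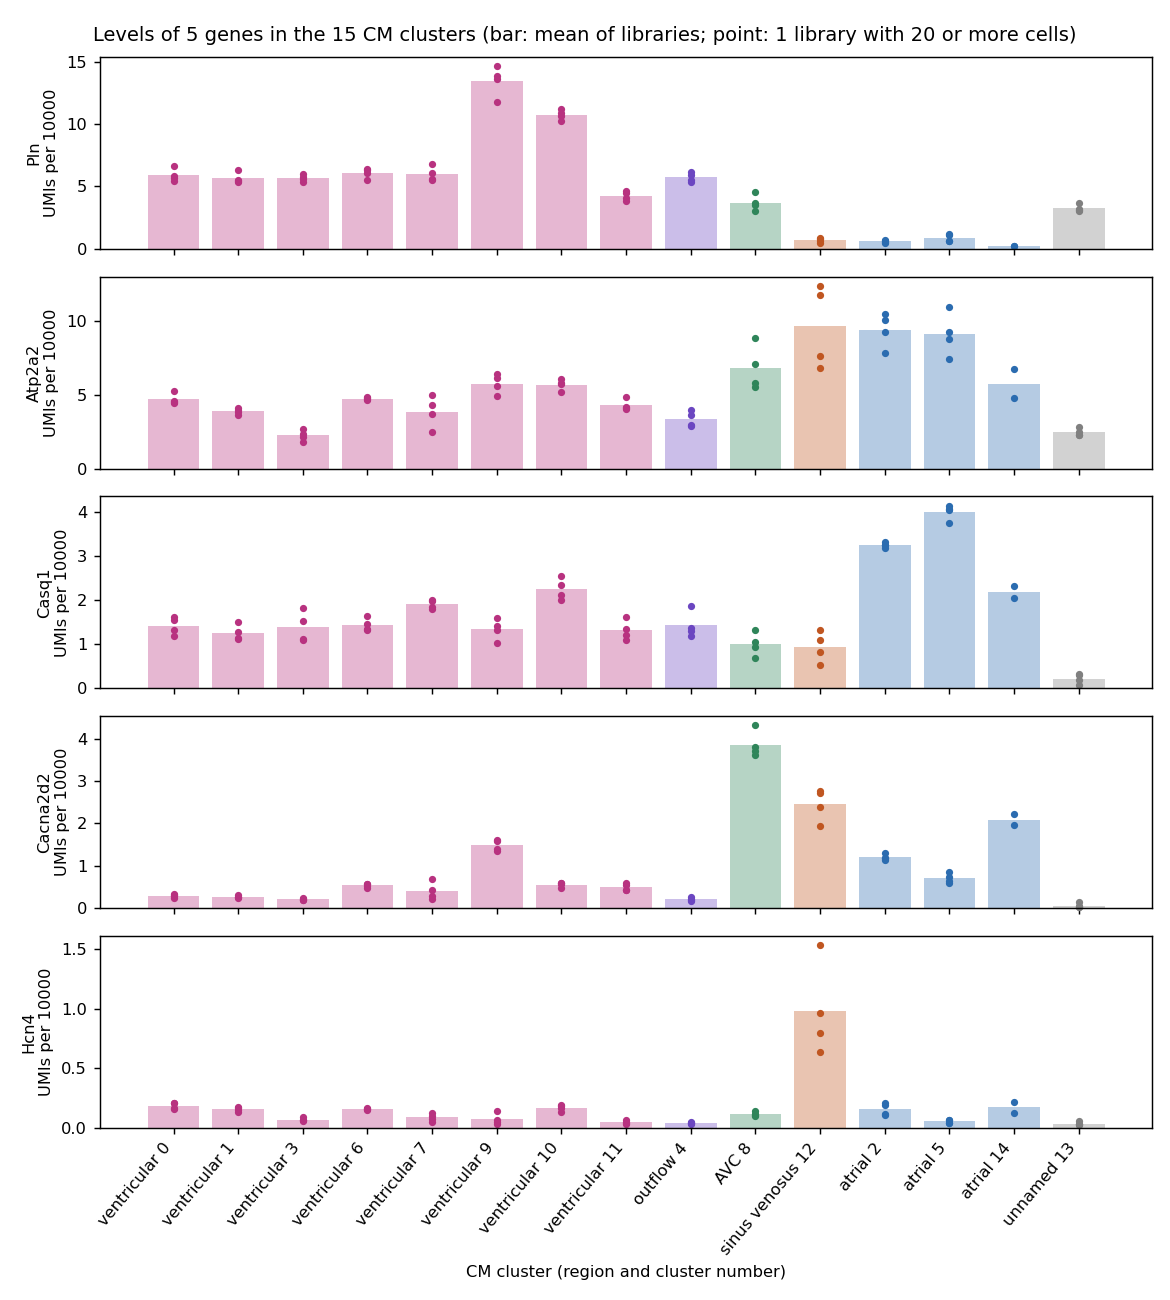
Levels of 5 genes in the 15 CM clusters, in UMIs per 10000 UMIs of a cell, 1 panel a gene, with clusters grouped by region along the horizontal axis. Bars are means of libraries and points are libraries with at least 20 cells of the cluster. *Pln* is uneven among the ventricular clusters, with 13.4 and 10.8 in 2 of them and 4.25 to 6.09 in the others.

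*Ryr2* encodes the cardiac ryanodine receptor, the release channel of the sarcoplasmic reticulum, and spans 553844 bases on chromosome 13 (GRCm38 chr13:11553102-12106945, minus strand). Its regional means were the most even of the 10, although it varied among the ventricular clusters, as given above. Ventricular CMs held 1.49, 1.51, 1.53 and 1.49 UMIs per 10000 in libraries 5, 6, 7 and 8, and all were below the atrial libraries (1.81 to 2.06) and above the outflow libraries (1.17 to 1.31). On CPM the ventricular and outflow libraries overlapped (161 to 175 against 128 to 170), while the atrial libraries stayed above both (211 or more). The sinus venosus mean, 2.09 ± 0.683, was the highest, but it rested on library 6 at 3.06, while the other 3 libraries lay between 1.60 and 2.09. AVC CMs, at 1.68 ± 0.133, overlapped the sinus venosus and atrial ranges.

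*Casq1* and *Casq2* encode the calsequestrins, which buffer calcium inside the reticulum. *Casq1* is the isoform known from skeletal muscle and *Casq2* the one known from the adult heart. *Casq1* (chr1:172209894-172219868, minus strand) was at 3.44, 3.60, 3.60 and 3.37 UMIs per 10000 in the atrial CMs of libraries 5, 6, 7 and 8, the narrowest spread of any named region for this gene. Ventricular CMs held 1.48 ± 0.203 and outflow CMs 1.43 ± 0.302, with overlapping libraries, and AVC (0.999 ± 0.263) and sinus venosus CMs (0.943 ± 0.348) overlapped as well. No library of another region reached the atrial range.

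*Casq2* (chr3:102086415-102146514, plus strand) gave 2596 UMIs in all named CMs. Outflow CMs held most, 0.119, 0.275, 0.108 and 0.187 UMIs per 10000 in libraries 5, 6, 7 and 8, and atrial CMs least, 0.0224 to 0.0385. On CPM the outflow libraries (11.9 to 24.5) and AVC libraries (3.81 to 15.9) overlapped. Within *Casq2* lie 2 other counted genes on the same strand, and how reads shared with them were counted is not given in the sources used here.

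*Slc8a1* encodes the sodium-calcium exchanger NCX1, which carries calcium out of the cell. AVC CMs held 7.68, 8.77, 9.94 and 9.91 UMIs per 10000 in libraries 5, 6, 7 and 8, and outflow CMs 5.94, 6.65, 7.84 and 7.80. Sinus venosus CMs were at 6.13 ± 0.662, atrial CMs at 5.35 ± 0.647 and ventricular CMs at 5.13 ± 0.658. In every region but the sinus venosus, libraries 7 and 8 were above 5 and 6, the reverse of *Atp2a2*, and neighbouring regions overlapped.

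*Cacna1c* encodes the pore of the L-type calcium channel, through which most calcium enters a CM during the action potential. AVC CMs held 0.407, 0.410, 0.344 and 0.352 UMIs per 10000 in libraries 5, 6, 7 and 8, above every library of the outflow (0.259 ± 0.0341), ventricular (0.214 ± 0.0250), atrial (0.183 ± 0.00725) and sinus venosus CMs (0.153 ± 0.0504). Among the lower 4, outflow overlapped ventricular CMs and atrial overlapped sinus venosus CMs, while ventricular and atrial CMs met without overlap (0.189 or more against 0.188 or less) and overlapped on CPM (19.5 to 22.4 against 17.5 to 20.5).

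*Cacna2d2* encodes an α2δ subunit that brings voltage-gated calcium channels to the membrane. Its regions did not overlap at any step: AVC CMs held 3.82, 4.32, 3.71 and 3.61, sinus venosus CMs 1.94, 2.76, 2.73 and 2.39, and atrial CMs 1.02, 1.05, 1.04 and 1.06 UMIs per 10000 in libraries 5, 6, 7 and 8. Ventricular CMs followed at 0.457 ± 0.0385 and outflow CMs at 0.199 ± 0.0396. The AVC and the outflow tract, both slowly conducting in the embryo, thus lay at opposite ends of this order. An atrial cluster of 182 cells led by *Osr1* and *Fabp4* had 2.09, a mean of the libraries with at least 20 of its cells.

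*Cacna1g* encodes a pore of the T-type calcium channel, which opens near the resting potential. It was close to the limit of detection, with 92 UMIs in all named CMs, 64 of them ventricular, and regional means of 0.000562 to 0.00577. EdCs were at 0.00406 and mesenchymal cells (MCs) at 0.0158, so the CM values did not stand above those of MCs.

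*Hcn4* encodes the main channel of the pacemaker current. It lies on chromosome 9 (GRCm38 chr9:58823412-58863175, plus strand). Sinus venosus CMs held 0.963, 1.54, 0.797 and 0.633 UMIs per 10000 in libraries 5, 6, 7 and 8, a mean of 0.982 ± 0.393 and 7.78 times the ventricular mean. Every sinus venosus library was above every library of the other regions. Ventricular (0.126 ± 0.0173), atrial (0.121 ± 0.0376) and AVC CMs (0.111 ± 0.0170) overlapped, and outflow CMs were lower, at 0.0395 ± 0.00773, without overlap with AVC CMs.

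The order of the libraries for *Hcn4* in sinus venosus CMs was also that of MC markers there: the summed level of 8 MC markers was 2.37, 3.39, 1.5 and 0.325 in libraries 5, 6, 7 and 8. In the other CM regions that sum was 0.137 to 0.716. MCs themselves held *Hcn4* at 15.7% of the CM level, mostly in 1 MC cluster, with 232 UMIs against 18, 11 and 3 in the others. That cluster was at 0.0522, 0.100, 0.184 and 0.0317 in the 4 libraries (397, 449, 26 and 112 cells), all far below the sinus venosus CMs. The other MC clusters were at 0.0026 to 0.00932 over all their cells. The part of MC RNA in the spread between the libraries was not tested.

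To set these levels against RNA that leaks from broken cells, each cell was thinned to 5500 UMIs, leaving out shallower cells (146 of 7611 ventricular CMs, 26 of 414 sinus venosus CMs and 162 of 3014 EdCs), and cells with a UMI of a gene were counted. *Hcn4* was seen in 27.3% to 45.8% of sinus venosus CMs by library, 5.62% to 7.63% of ventricular CMs and 0.297% to 0.680% of EdCs (46.2% to 75.4%, 23.1% to 40.2% and 0.662% to 4.02% before thinning, at median depths of 10312 to 25102, 24318 to 53775 and 11481 to 26543 UMIs). *Pln* was seen in 87.7% to 91.1% of ventricular, 17.9% to 21.6% of atrial and 5.96% to 14.2% of EdCs after thinning, and in 97.4% to 98.8%, 49.7% to 60.6% and 20.4% to 27.2% before. *Cacna2d2* was seen in 77.5% to 85.0% of AVC CMs and 1.66% to 4.99% of EdCs after thinning (91.7% to 100% and 6.43% to 10.5% before). *Cacna1g* reached no more than 0.840% in a CM region and 0.567% in EdCs after thinning, and was read as background.

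Outside the CMs, 8 CM markers stood at 2.72% to 5.09% of their CM level in EdCs, 2.85% to 4.97% in MCs and 2.01% to 5.59% in epicardial cells. *Atp2a2* was above that range, at 18.2%, 15.1% and 19.1%, a pump gene used by many cell types. On the mean of libraries, also above the range were, in MCs, *Hcn4* (15.7%), *Casq2* (13.2%), *Cacna1c* (8.21%) and *Cacna2d2* (6.74%), in EdCs, *Hcn4* (8.0%), *Cacna2d2* (6.77%) and *Casq2* (5.36%), and in epicardial cells *Hcn4* (6.15%). In EdCs the lowest libraries were not above it (2.61%, 3.35% and 2.68% for those genes). Nor were the lowest for *Hcn4* in epicardial cells (2.76%) and *Cacna2d2* in MCs (4.65%). The MC cluster with most *Hcn4* also had *Cacna2d2* at 0.131 over all its cells, against at most 0.0333 in the other MC clusters. *Cacna1g*, with few UMIs in CMs, had a higher mean in all 3 cell types than over all CMs. In the same MC cluster it had 125 UMIs, at 0.0289, 0.0481, 0.0270 and 0.0271 UMIs per 10000 in libraries 5, 6, 7 and 8. Its EdC mean, 0.00406, was below those of AVC and sinus venosus CMs (0.00577 and 0.00557).

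**Figure D3:**
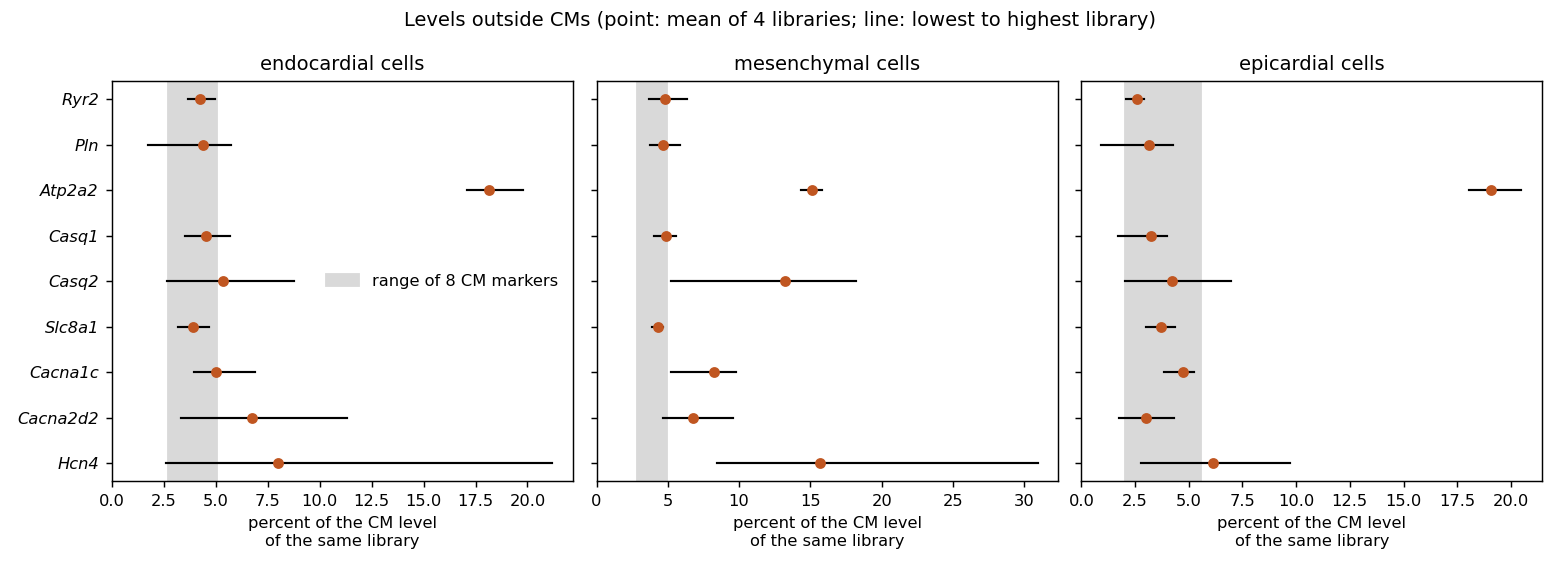
Levels of the genes in EdCs, MCs and epicardial cells as a percentage of their CM level (horizontal axis), with points for the mean of 4 libraries, lines from the lowest to the highest library and a grey band for the range of 8 CM marker genes. *Cacna1g*, near the limit of detection, is left out. *Atp2a2* (15.1% to 19.1%) stands above the marker range in all 3 cell types. The mean of *Hcn4* (6.15% to 15.7%) does too, with a wide range over libraries, but in EdCs and epicardial cells its lowest library does not.

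The genes whose pattern was most like each of the 10 were named by Pearson's r over the 20 sums of library and region, on log2(CPM + 1) for genes of at least 10 CPM. These values are across libraries that share cells and depth, and carry no test. *Pln* was closest to *Hand1* (0.974), *Cspg4* (0.964) and *Myl2* (0.958), and *Atp2a2* to *Nr2f2* (0.963), *Nr2f1* and *Trabd* (both 0.955). *Cacna2d2* was closest to *Gnao1* (0.976) and *Hcn4* to *Rsrc1* (0.963), while *Casq1* was closest to *Fkbp1a* (0.887) and *Slc8a1* to *Amotl2* (0.961). For *Ryr2* the closest was *Ptprk* (0.918), for *Cacna1c* *Nt5c* (0.924) and for *Casq2* *1110002E22Rik* (0.827). Between members, *Ryr2* and *Atp2a2* were alike (0.876), while *Pln* ran against *Atp2a2* (-0.90) and *Ryr2* (-0.80).

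The 66 related genes were grouped as sarcoplasmic reticulum, cell membrane calcium transport, pacemaker and conduction, and calcium signalling. Of the 35 at 10 CPM or more, 6 were clearly highest in AVC CMs (17.1%, against 4.96% of all genes), 4 in outflow CMs (11.4%, against 2.99%), 2 in atrial CMs (1.03% of all genes), 1 in ventricular CMs (3.9%) and 1 in sinus venosus CMs (2.35%). The AVC genes were *Asph*, *Trdn* and *Srl* of the reticulum, the potassium channel genes *Kcnj5* and *Kcne1*, and *S100a1*. *Trdn*, which anchors calsequestrin to the release channel, was at 3.49 UMIs per 10000 in AVC CMs and 1.49 to 1.84 elsewhere. *Kcne1*, a subunit of the slow delayed rectifier channel, was at 1.80 in AVC CMs and 0.811 or less elsewhere. *Fkbp1a*, whose product binds ryanodine receptors, was at 8.99 in atrial CMs and 5.30 to 6.87 elsewhere. *Gja1*, the connexin 43 gene, was at 0.550 in ventricular CMs and 0.0244 in outflow CMs, and *Gjc1*, the connexin 45 gene, at 1.49 in outflow and 1.38 in AVC CMs and 0.582 to 0.717 elsewhere. *Sln*, the gene of sarcolipin, another inhibitor of the calcium pump, was at 0.770 in sinus venosus, 0.214 in atrial, 0.178 in outflow, 0.0945 in AVC and 0.0061 in ventricular CMs. It was named after its values were seen.

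The question of genotype was whether the loss of *Tie2* from the endocardium changed these genes in the neighbouring muscle. Counts were summed per library within a region (sinus venosus and AVC CMs together, which had few cells) and tested with edgeR's quasi-likelihood test over all genes at an adjusted p of 0.05, Benjamini-Hochberg. No gene of the 10 was called in any region. In all CMs 0% of 15631 genes were called, in ventricular CMs 0% of 14863, in atrial CMs 0% of 12615, in sinus venosus and AVC CMs 0% of 11925 and in outflow CMs 0.0364% of 10993, which were 4 haemoglobin genes that fell in *Tie2-cko* by 1.91 to 2.22 on the log2 scale (edgeR adjusted p = 0.0345). At an unadjusted p under 0.05 the counts were 69, 79, 84, 89 and 180 genes (0.441%, 0.532%, 0.666%, 0.746% and 1.64%), of the 10 genes only 2 in outflow CMs, and DESeq2 called 1, 1, 0, 4 and 6 genes. *Cacna1g* had too few counts to be tested in atrial, sinus venosus and AVC, or outflow CMs.

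How much the data could have missed is given by the 95% interval of the log2 difference of *Tie2-cko* minus control. It lay within 2-fold for 9 of 10 genes in all CMs and in ventricular CMs, 9 of 9 in atrial CMs, 6 of 9 in sinus venosus and AVC CMs and 7 of 9 in outflow CMs. In ventricular CMs *Pln* was at 604 and 658 CPM in the control libraries, with 651 and 717 in those of *Tie2-cko*. Each genotype overlapped the other, and the log2 difference was 0.09 (SE 0.12, interval -0.20 to 0.38, edgeR adjusted p = 1). *Atp2a2* differed by -0.04 (interval -0.31 to 0.23) and *Casq1* by 0.08 (interval -0.31 to 0.47). The libraries of the 2 genotypes overlapped for all 9 genes over 1 CPM in ventricular CMs and in all CMs, where they did not overlap for 17% and 15.3% of all such genes. The median over the 10 genes was -0.01, beside 0.01 over all genes tested.

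**Figure D4:**
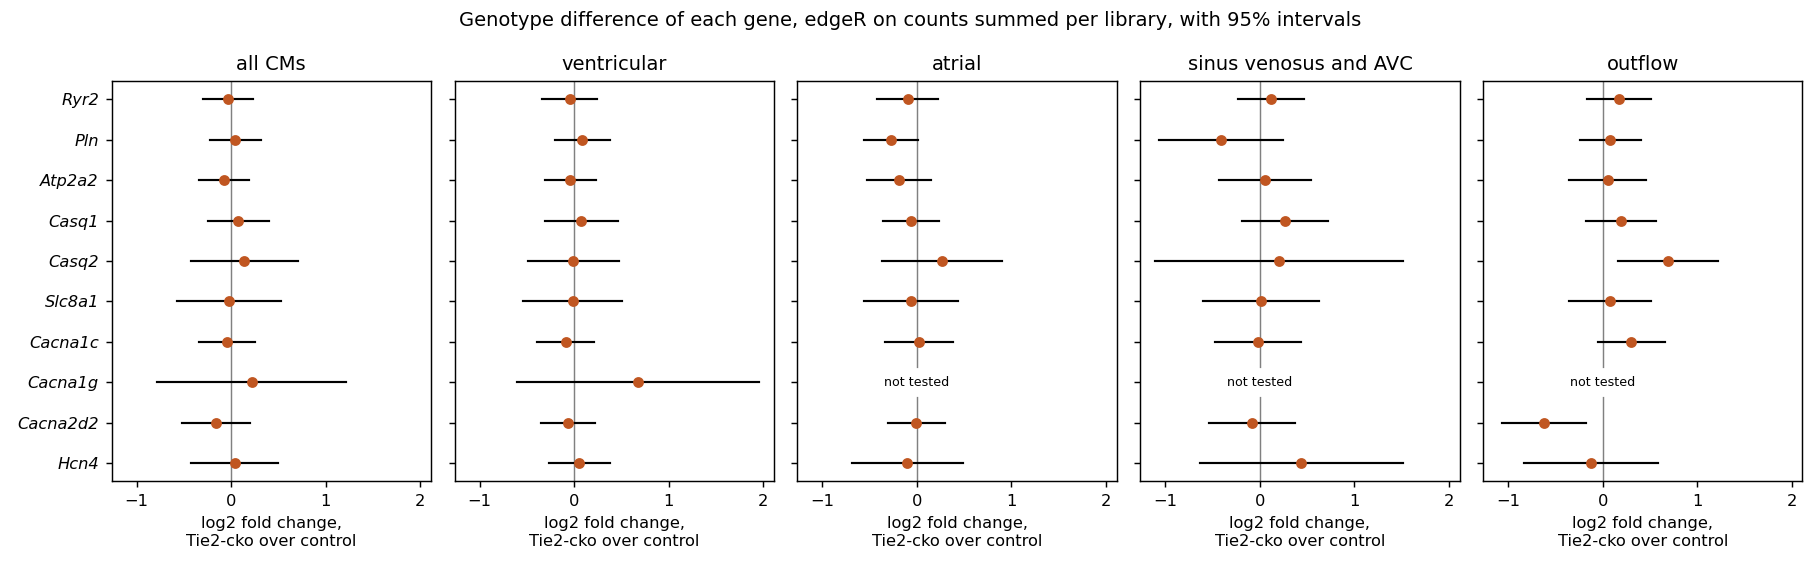
Log2 differences of *Tie2-cko* minus control for the 10 genes in all CMs and in 4 regional groups of CMs, with 95% intervals from edgeR, 2 libraries a genotype. *Cacna1g* is marked as not tested in atrial, sinus venosus and AVC, and outflow CMs. No gene passed an adjusted p of 0.05. Apart from *Cacna1g* (-0.61 to 1.96), intervals are narrow in ventricular CMs. They are wider in sinus venosus and AVC CMs, where that of *Hcn4* runs from -0.64 to 1.52.

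In atrial CMs *Pln* was at 64.9 and 66.8 CPM in the controls and 53.4 and 56.6 in *Tie2-cko*, and *Atp2a2* at 1069 and 1040.5 against 1039.97 and 833. The libraries of the 2 genotypes did not overlap for these 2 of 9 genes, *Atp2a2* by a margin under 1 CPM, beside 21.3% of all genes over 1 CPM in these cells. On the mean over cells both genes overlapped between genotypes. The log2 difference of *Pln* was -0.27 (SE 0.12, edgeR unadjusted p = 0.058, adjusted p = 1.00) and that of *Atp2a2* was -0.19 (SE 0.14).

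In sinus venosus and AVC CMs *Hcn4* differed by 0.44 (SE 0.46, interval -0.64 to 1.52), and without library 6 by -0.49, so its direction rested on that library. *Pln* differed by -0.41 (interval -1.06 to 0.25). The genotypes did not overlap for 2 of 9 genes, *Ryr2* and *Casq1*, both higher in *Tie2-cko*, beside 21.8% of all genes over 1 CPM. This held only for the 2 regions summed. On CPM both genes overlapped between genotypes in sinus venosus CMs alone and in AVC CMs alone. *Ryr2* in AVC CMs was at 199 and 193 in the controls against 160 and 211. *Casq1* in sinus venosus CMs was at 111 and 95.5 against 52.2 and 176. The comparison mixes 2 regions, and their mix differed between libraries. Sinus venosus CMs numbered 141, 65, 128 and 80 and AVC CMs 182, 60, 315 and 288 in libraries 5, 6, 7 and 8. *Hcn4* averaged 0.982 UMIs per 10000 in the former and 0.111 in the latter. The part of this mix in the differences was not tested. Together the 2 regions were 10.4% and 12.2% of all CMs in the controls and 8.96% and 8.24% in *Tie2-cko*. The difference was -2.71 percentage points (p = 0.33 by a two-sided exact permutation test, which can go no lower with 2 libraries against 2). The shares of ventricular, atrial and outflow CMs overlapped between genotypes.

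The 2 genes with an unadjusted p under 0.05 were *Casq2* and *Cacna2d2*, both in outflow CMs. *Cacna1g* in ventricular CMs differed by a similar size, 0.68 (SE 0.52), on 64 UMIs. In outflow CMs *Casq2* was at 14.3 and 11.9 CPM in the control libraries, against 17.4 and 24.5 in *Tie2-cko*, a log2 difference of 0.69 (SE 0.23, edgeR unadjusted p = 0.017, adjusted p = 1.00). *Cacna2d2* was at 30.3 and 23.1 against 17.2 and 17.7, a difference of -0.62 (SE 0.19, edgeR unadjusted p = 0.011, adjusted p = 1.00). With *Cacna1c* (26.3 and 24.3 against 31.1 and 31.7), 3 of 9 genes did not overlap between genotypes, beside 25.6% of all genes over 1 CPM in these cells. An unadjusted p under 0.05 was reached by 2 of 9 genes, beside 1.64% of all genes.

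*Slc8a1* separated libraries 5 and 6 from 7 and 8 in all regions but the sinus venosus, and so did *Atp2a2* in every region on the mean over cells, though not on CPM in ventricular and atrial CMs. The sources used here do not say what these pairs of libraries share. Within libraries 5 and 6, and again within 7 and 8, *Casq2* was higher and *Cacna2d2* lower in the outflow CMs of *Tie2-cko*. Any pairing would give these directions, since on CPM the genotypes did not overlap for either gene. The labels do not give the pairing of 5 with 6 and of 7 with 8, which was taken from earlier results of these data. With the library pair as a block, an alternative to the fit above, both passed the threshold (edgeR adjusted p = 0.011 and 0.018). They were among 56 genes called of 10993 tested in outflow CMs, and no other member was called in any region. Both were measured from few counts, 422 and 502 UMIs, beside haemoglobin RNA that also differed between these libraries (29.4 and 51.3 UMIs per 10000 in control and 8.40 and 17.0 in *Tie2-cko*), and the part of that difference was not tested.

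Whether a genotype difference itself varied between regions was tested with the terms of region by genotype in 1 model with the library as a block. None of the 9 members tested was called, beside 0% of 13394 genes. The unadjusted p was 0.025 for *Pln* and 0.028 for *Cacna2d2*, and 2.78% of all genes were under 0.05, so a difference in outflow CMs that is absent elsewhere was not shown. Without the filter on low counts the model called 115 genes, with *Pln* among them (edgeR adjusted p = 8.92e-07), while its edgeR or DESeq2 adjusted p was 0.0511 or more under the other alternatives. Of the 66 related genes none was called in any comparison. In outflow CMs *Kcne1* (-0.38, unadjusted p = 0.032) and *Chrm2*, the muscarinic receptor gene (0.56, unadjusted p = 0.047), were the only ones under an unadjusted p of 0.05 in edgeR among the genotype comparisons.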

How the data were processed

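The authors deposited filtered 10x matrices of raw UMI counts per gene and cell for 4 libraries. They were made with Cell Ranger (6.1.2 by the file header, another release by the study's methods) and aligned to mm10 by the submitters' processing notes. Barcodes were kept from 500 genes and 1000 UMIs upwards, where mitochondrial UMIs did not exceed 10%. Presumed doublets were removed with Scrublet in scanpy 1.11.5, at 0.8% per 1000 cells. Cells were clustered with Seurat 5.3.0 (2000 variable genes, 30 components, resolution 0.8), and CMs again, with scaling within each library and 20 components, because without it clusters split by library. That scaling, and the tie-break that named clusters by where their markers peaked, were chosen after seeing the clusters. Regions may therefore differ from those of the study.

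Counts were summed per library and region and tested with edgeR 4.0.16 (TMM, filterByExpr, quasi-likelihood, Benjamini-Hochberg), a library with fewer than 20 cells being left out. The script was tested on simulated data. Positions are from GENCODE M21 and promoters from RefSeq. The alternatives were DESeq2 1.42.0, DESeq2 size factors, no filter on low counts, a block for library pairs, stricter cell filters, doublets kept, resolution 0.4, each library left out, and, chosen after seeing the data, clustering without scaling within libraries, the unnamed cluster counted as outflow, and sinus venosus and AVC CMs tested apart. The 10 genes and the related lists were chosen with earlier results of these data known. The named genes were all 10, those of a list past the threshold, up to 4 a list by the largest control level, and the closest genes by r.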

Additional observations from a re-analysis of the deposited data

How the results depend on the processing

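Control and *Tie2-cko* libraries share no replicate number, and the study's methods mention a shared litter and lane without saying which libraries these were. The block for libraries 5 and 6 against 7 and 8 was taken from earlier results of these data. Counts of genes called by genotype were 0 in all, ventricular, atrial, and sinus venosus and AVC CMs, 4 in outflow CMs and 0 for region by genotype. With that block they were 90, 63, 24, 12 and 56 for the 5 groups of CMs in that order. DESeq2 called 1 in all CMs, 1 in ventricular CMs, 4 in sinus venosus and AVC CMs and 2 for region by genotype, there with its likelihood ratio test. Without the filter on low counts, 2 were called in ventricular, 14 in atrial, 5 in sinus venosus and AVC and 18 in outflow CMs, and 115 for region by genotype. With presumed doublets kept, 0 were called in outflow CMs. The causes were not tested. Leaving out 1 library at a time, with the lone library of a genotype assumed to vary like the other genotype's, gave 0 to 2 calls in all CMs, 3 to 61 in ventricular, 0 to 38 in atrial, 0 to 56 in sinus venosus and AVC and 0 to 16 in outflow CMs, and 0 to 7 for region by genotype.

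Directions were followed only for members whose log2 difference exceeded its SE or was the lowest or highest of its comparison. Of their 187 alternative values, 180 kept their direction and their side of the threshold, 5 reversed and 2 passed it (*Casq2* and *Cacna2d2* in outflow CMs with the block). Members with smaller differences were left out, so the count does not give the stability of all 10 genes. Reversals among the 187 values came only when a library was left out: the log2 difference ran from -0.10 to 0.50 for *Cacna1g* in all CMs, -0.198 to 0.0137 for *Cacna1c* in ventricular CMs, -0.11 to 0.52 for *Casq2* in atrial CMs and -0.49 to 1.03 for *Hcn4* in sinus venosus and AVC CMs. The share of ventricular CMs differed by 0.781 percentage points (-3.27 to 4.83 with a library left out), that of atrial CMs by 0.383 (-1.53 to 2.29, -0.155 under stricter cell filters and -0.0529 with doublets kept) and that of outflow CMs by 0.700 (-0.378 to 1.78). The share of sinus venosus and AVC CMs was lower in *Tie2-cko* under every alternative run. The highest region stayed the same for 7 of the 10 genes under every alternative run. *Ryr2* and *Atp2a2* moved from sinus venosus to atrial CMs in the controls alone and under stricter cell filters, *Atp2a2* also at resolution 0.4 and after thinning, and *Cacna1g* moved between AVC and sinus venosus CMs. Counts were lowest for *Cacna1g*, with 3 to 64 UMIs in a region, and for *Casq2* in sinus venosus CMs, with 37.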
